A study of Xenopus tropicalis with 26 samples.

Results

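In early gastrulae of Xenopus tropicalis, 800 of 11525 H3K4me1 regions (6.94%) carried a peak in untreated ectoderm, mesoderm and endoderm alike. They were chosen by merging the authors' peaks of the 3 untreated libraries of the second experiment wherever peaks overlapped by at least 1 bp, and keeping merged regions that held peaks of every layer. Of the remaining regions, 3081 had peaks of 2 layers and 7644 of 1 layer. The presence, strength, width and summit distances of the 800 regions in these 3 lists follow from the choice or share its data, and are given as descriptions. The 6 other peak lists took no part in it, and the regions were looked up there.

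All ChIP samples came from embryos at stage NF 10.25, 7 hours after fertilisation, and each was pooled from tissue of 100 embryos: animal cap for ectoderm, marginal zone for mesoderm and vegetal mass for endoderm. In the first experiment, set 1, untreated ectoderm and mesoderm had 2 replicates each, which the authors combined into 1 list per layer. In the second, set 2, there was 1 library each of untreated ectoderm, mesoderm and endoderm, of the same 3 layers from embryos given 5 pg of alpha-amanitin, and of endoderm from embryos given Vegt, Otx1 and Foxh1 morpholinos together. No group is labelled as mock-injected, and the effect of each morpholino cannot be told apart from that of the others. The dissected pieces were whole tissue, so fewer cells with the mark and less mark per cell cannot be told apart. The sources used here do not give the genome build, so regions are named by the coordinates of the files, counted from 1, without gene names, and the layers could not be checked against marker genes.

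H3K4me1 is a single methyl group on lysine 4 of histone H3, placed mainly by the enzymes of the KMT2C and KMT2D complexes, and it is found at enhancers, active or not yet active, and beside promoters. Alpha-amanitin blocks RNA polymerase II and so stops the embryo's own transcription, which leaves it with the RNA and protein laid down in the egg. Vegt is a maternal T-box factor of vegetal cells that specifies endoderm, Otx1 is a homeobox factor present in the egg, and Foxh1 is a forkhead factor that works with the Smad proteins of Nodal signalling.

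The untreated lists of set 2 held 4148 ectoderm, 8812 mesoderm and 3740 endoderm peaks, and the 3-layer regions contained 22.1%, 9.60% and 24.5% of these. The other lists ran from 1192 peaks (morpholino endoderm) to 15925 (set 1 mesoderm). Read numbers are unknown, and a region without a listed peak had no peak over the authors' threshold, which does not show that the mark was missing. With 1 library per condition there was no test over samples. The 95% intervals are exact binomial (Clopper-Pearson) for shares and Newcombe intervals for differences of shares. They treat regions as independent, which neighbouring regions are not, and cover counting error only.

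The 3-layer regions were 252 to 3964 bp wide, with a median of 786 bp and quartiles of 568 and 1173 bp. In 626 of them (78.2%) each layer contributed exactly 1 peak, and the other 174 held more, up to 9. Several peaks within 1 region were found for ectoderm in 101 regions, for endoderm in 102 and for mesoderm in 45. The stretch covered by all 3 layers at once had a median of 287 bp, or 41.6% of the region. In 36 regions (4.50%) no base was covered by all 3 layers, because the peak of a layer joined the other two without their meeting each other.

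By rank within each list, the layers were not equally strong in these regions. Strength was taken as the percentile of a peak's −log10 q, the authors' significance of its enrichment, within its own list, so a value of 50 is the middle of that list. The strongest peak of the region ranked lowest in endoderm in 415 regions (51.9%), in ectoderm in 327 (40.9%) and in mesoderm in 58 (7.25%). The authors' fold enrichment over background had a median of 6.25 in ectoderm, 7.33 in mesoderm and 7.11 in endoderm for peaks in these regions. Ectoderm and endoderm thus changed order with the measure. Mesoderm had the longest untreated list, so peaks of equal rank are not equally significant in the 3 lists. Spearman's rho of these percentiles over the 800 regions was 0.47 between ectoderm and mesoderm, 0.24 between ectoderm and endoderm and 0.27 between mesoderm and endoderm. These values describe regions that share their sequence and width, and the libraries share the experiment.

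The highest rank in the weakest layer, at the 99.97 percentile, belonged to a region on a scaffold outside the chromosomes. Among the 740 regions on chromosomes, the one that ranked highest lay on chromosome 6 (116112163 to 116115188, 3026 bp) and had a peak in all 9 lists. Its −log10 q was 111 in untreated ectoderm, 168 in mesoderm and 121 in endoderm, and 137 and 107 in set 1 ectoderm and mesoderm. After alpha-amanitin it was 111 in ectoderm, 126 in mesoderm and 104 in endoderm, and with the morpholinos it was 112. It ranked at the 99.9 percentile or above in every list. The next of the 740, on chromosome 1 (93547889 to 93548843, 955 bp), was likewise present in every list, with −log10 q from 54.0 in untreated ectoderm to 155 in set 1 mesoderm. A region on chromosome 6 (127555712 to 127556764) was as strong by rank in the untreated layers, at 49.7, 62.6 and 66.5, but weaker in set 1, at 15.0 in ectoderm and 18.7 in mesoderm. Its values after alpha-amanitin were 57.4 in ectoderm, 43.1 in mesoderm and 48.7 in endoderm, and 26.7 with the morpholinos. Strength in all 3 untreated libraries of set 2 did not always go with a peak in set 1. A region on chromosome 9 (34257803 to 34258214) had values of 40.2, 64.8 and 59.1 in untreated ectoderm, mesoderm and endoderm and 57.0 to 82.9 after alpha-amanitin, but only 9.44 in set 1 mesoderm and no set 1 ectoderm peak. A region on chromosome 3 (133953700 to 133954201) had a peak in all 7 lists of set 2 and in neither list of set 1.

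The set 1 lists show how far the 3-layer regions recurred in another experiment on untreated embryos. In set 1 ectoderm 691 of the 800 had a peak (86.4%, 83.8 to 88.7), where 50% of all merged regions did. In set 1 mesoderm 722 had one (90.2%, 88.0 to 92.2), against 63.4% of all regions. Both layers of set 1 held 667 of the regions (83.4%, 80.6 to 85.9, against 43.0% of all regions). These shares rest on the length of the set 1 lists: in their strongest 1192 peaks alone, 29.6% of the regions were found in ectoderm and 45.2% in mesoderm. Here and below, the share of all merged regions found in lists shortened this way was not counted. With the full lists, a further 55 had a peak in set 1 mesoderm alone, 24 in set 1 ectoderm alone and 54 in neither (6.75%, against 29.6% of all regions). Set 1 mesoderm also held more of all merged regions than set 1 ectoderm did. No set 1 endoderm sample was analysed here. The 2190 regions with ectoderm and mesoderm peaks but no endoderm peak share both of these layers with the 3-layer regions. They were found in 79.1% and 81.9% of cases, so the 3-layer regions were found more often by 7.24 points in set 1 ectoderm (4.20 to 10.1) and by 8.33 points in set 1 mesoderm (5.60 to 10.8). Against all 3081 regions of 2 layers the differences were 15.7 points (12.7 to 18.5) and 8.26 points (5.65 to 10.6). This last difference depended on list length: it was 27.0 points when every other list was shortened to its strongest 1192 peaks, and 3.80 points when the untreated lists were shortened to 3740.

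**Figure D1:**
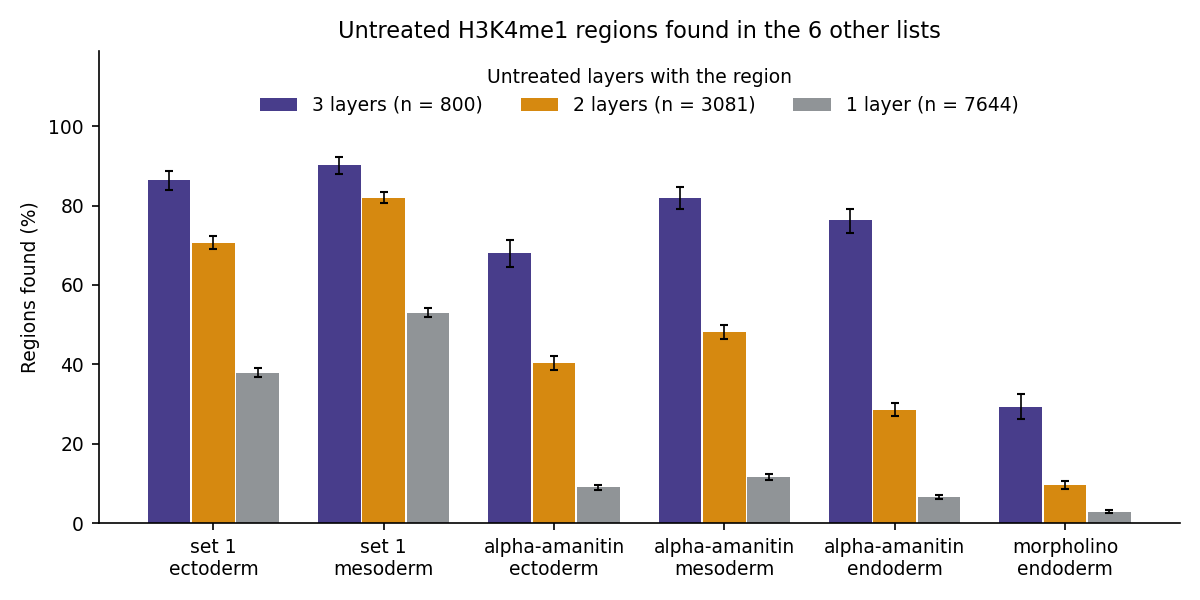
Percent of untreated H3K4me1 regions (y axis) with an overlapping peak in each of the 6 lists that took no part in their choice (x axis), for regions of 3, 2 or 1 untreated layers; bars are shares and error bars exact 95% binomial intervals over regions. In every list the 3-layer regions stood highest, from 29.2% with the morpholinos to 90.2% in set 1 mesoderm, and the 1-layer regions lowest.

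After alpha-amanitin most 3-layer regions still had a peak in each layer. In alpha-amanitin ectoderm 544 were found (68.0%, 64.6 to 71.2, against 21.5% of all regions), in mesoderm 656 (82.0%, 79.2 to 84.6, against 26.3%) and in endoderm 610 (76.2%, 73.1 to 79.2, against 17.3%). All 3 alpha-amanitin lists held 430 of them (53.8%, 50.2 to 57.2, against 7.40% of all regions), and 355 of the 3081 regions of 2 layers did (11.5%). None of the 3 alpha-amanitin lists held 49 (6.12%, 4.57 to 8.02), where 61.4% of all regions were in none. The lists differ in length, and when each was shortened to its strongest 1192 peaks, endoderm was highest, at 55.6%, with mesoderm at 47.6% and ectoderm at 35.2%, and 19.9% of the regions were in all 3.

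Regions of 2 layers are the closest neighbours of the 3-layer ones when both share the layer that was treated. In alpha-amanitin endoderm, 3-layer regions were found more often than regions of mesoderm and endoderm (40.8%) by 35.5 points (31.0 to 39.8). In alpha-amanitin ectoderm they were found more often than regions of ectoderm and mesoderm by 16.4 points, and in alpha-amanitin mesoderm by 24.0 points. Regions of mesoderm and endoderm also share the treated mesoderm, and from these (24.2% found) the difference in alpha-amanitin mesoderm was 57.8 points (53.7 to 61.5). Stronger peaks were found more often, so the same differences were taken within 5 bins of the untreated peak's strength, each spanning 20 percentiles, and averaged. For alpha-amanitin endoderm the mean difference was 33.8 points (29.3 to 38.2), with 28.1 to 42.6 in the single bins. In the weakest bin 55.7% of the 3-layer regions were found against 27.7% of the regions of mesoderm and endoderm, and in the strongest bin 91.1% (86.6 to 94.5) against 52.7% (45.6 to 59.7). For alpha-amanitin ectoderm the mean difference from regions of ectoderm and mesoderm was 11.3 points (7.23 to 15.4), and it ran from -0.195 to 17.1 over the bins. For alpha-amanitin mesoderm it was 14.2 points (7.13 to 21.2) from the same regions, and from regions of mesoderm and endoderm it was 44.2 points (37.0 to 51.4). Only 15 of the 3-layer regions were in the weakest bin of mesoderm.

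The 8 possible combinations of the alpha-amanitin lists were unequally filled. After the 430 regions in all 3, the next were 110 regions in mesoderm and endoderm, 64 in ectoderm and mesoderm and 52 in mesoderm alone. Endoderm alone held 45 regions, ectoderm alone 25, and ectoderm with endoderm 25. Apart from all 3 and none, the share of all merged regions in each combination was not counted. The lists also differ in length, so whether the unequal filling is particular to 3-layer regions was not tested. Regions in more of these lists were stronger and wider in the untreated layers. The median percentile of the weakest untreated layer was 13.9 for regions in no alpha-amanitin list, 27.0 for those in 1, 36.8 for those in 2 and 54.0 for those in all 3, and the median widths were 593, 620, 747 and 906 bp. Whether strength, width or the layers themselves set the number of lists was not tested.

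**Figure D2:**
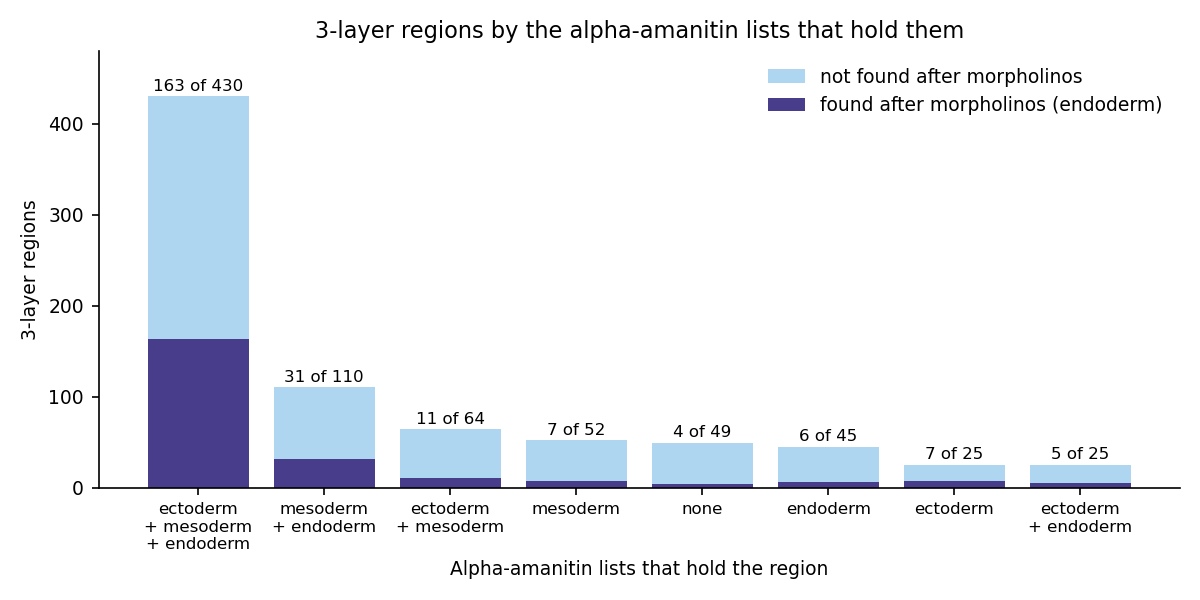
Number of 3-layer regions (y axis, of 800) in each combination of the alpha-amanitin lists, divided into regions with (dark) and without (light) a peak in morpholino endoderm. The combination of all 3 lists held 430 regions, 163 of them also found with the morpholinos, and the next largest, mesoderm with endoderm, held 110.

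In endoderm injected with the Vegt, Otx1 and Foxh1 morpholinos, 234 of the 3-layer regions had a peak (29.2%, 26.1 to 32.5), where 6.52% of all regions did. This list was the shortest, with 1192 peaks, and the 3-layer regions contained 255 of them (21.4%, 19.1 to 23.8). Regions of mesoderm and endoderm were found in 16.6% of cases, so 3-layer regions were found more often by 12.6 points (8.58 to 16.6). Averaged over bins of untreated endoderm strength the difference was 10.5 points (6.71 to 14.4), from 4.79 to 21.7 in the single bins. In the strongest bin the shares were 47.1% and 25.4%.

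Within the 3-layer regions, peaks in alpha-amanitin endoderm and in morpholino endoderm occurred together. The same shares were not counted over all merged regions, so whether this is particular to 3-layer regions was not tested. Of the 610 regions with an alpha-amanitin endoderm peak, 205 also had a morpholino peak (33.6%, 29.9 to 37.5). Of the 190 without one, 29 did (15.3%, 10.5 to 21.2). The former were stronger in untreated endoderm, with a median percentile of 65.1 against 40.0. Averaged over 5 bins of that strength the difference was 12.6 points (5.75 to 19.5), and it was above 0 in every bin, from 5.37 to 19.1. Across the alpha-amanitin lists, the share found with the morpholinos was 8.16% for regions in none (4 of 49, 2.27 to 19.6), 16.4% for those in 1 list, 23.6% for those in 2 and 37.9% for those in all 3 (163 of 430, 33.3 to 42.7).

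Single regions show the extremes of these combinations. Of the 253 regions on chromosomes that were in all 3 alpha-amanitin lists but had no morpholino peak, the strongest lay on chromosome 1 (57439210 to 57441886). Its −log10 q was 28.5, 37.4 and 28.1 in untreated ectoderm, mesoderm and endoderm, and 23.4, 21.4 and 15.8 in the same layers after alpha-amanitin. A region on chromosome 6 (73844485 to 73845553) had 32.6 in untreated endoderm and 40.5 after alpha-amanitin, and one on chromosome 7 (18648372 to 18649916) had 24.5 and 26.9, both without a morpholino peak. All 3 ranked at the 92.6 percentile or above in every untreated layer. The opposite combination, a morpholino peak and no alpha-amanitin peak, occurred 4 times. The strongest of these, on chromosome 7 (104503784 to 104504375), had 16.1 in untreated endoderm and 13.5 with the morpholinos, and was strong in set 1, at 20.8 in ectoderm and 22.3 in mesoderm. Neither combination was counted for all merged regions. The morpholino list was also the shortest, so the sizes of the combinations were not compared.

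Counted over the 6 other lists, 138 regions were in all of them and thus in all 9 lists (17.2%, 14.7 to 20.0), and with the other lists shortened to their strongest 1192 peaks 5.62% were. With the full lists, all 6 held 1.62% of all merged regions and 45 of the regions of 2 layers (1.46%). A further 288 of the 3-layer regions were in 5 of the other lists, 177 in 4, 114 in 3, 60 in 2 and 19 in 1. The median was 5 lists for 3-layer regions, 3 for regions of 2 layers and 1 for regions of 1 layer. In none of the 6 lists were 4 regions (0.500%, 0.136 to 1.28), where 24.8% of all regions were in none. The 3 with the highest rank in their weakest layer lay on chromosome 3 (107516854 to 107517377), with −log10 q of 10.7, 14.6 and 13.7 in untreated ectoderm, mesoderm and endoderm, on chromosome 5 (117606321 to 117607003), with 16.5, 17.9 and 10.7, and on chromosome 6 (42947848 to 42948921), with 9.42, 30.3 and 15.8. Their weakest layer ranked at or below the 20.3 percentile, but the last was at the 95.5 percentile in mesoderm.

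Presence in the other lists went with strength, but less so in set 1. When the regions were divided into 5 groups of 160 by the percentile of their weakest untreated layer, the share in all 9 lists was 7.50% in the lowest group and 37.5% in the highest. From the lowest to the highest group, the share found went from 53.8% to 86.2% in alpha-amanitin ectoderm, from 64.4% to 94.4% in mesoderm and from 55.6% to 90.0% in endoderm, and from 16.2% to 53.1% with the morpholinos. In set 1 the corresponding values were 81.2% and 88.1% in ectoderm and 90.6% and 91.9% in mesoderm, so weak 3-layer regions had peaks there nearly as often as strong ones. The set 1 lists were also the longest.

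Within each of the 6 other lists, peaks that fell in 3-layer regions ranked higher than the rest. The median percentile in set 1 mesoderm was 91.5 for peaks in 3-layer regions, 76.9 in regions of 2 layers, 59.8 in regions of 1 layer and 36.7 outside all of them. In set 1 ectoderm these medians were 81.9, 73.8, 58.6 and 39.3. After alpha-amanitin, the medians in 3-layer regions were 61.3 in ectoderm, 68.4 in mesoderm and 67.0 in endoderm, and those in regions of 2 layers 54.9, 52.2 and 46.8. With the morpholinos they were 57.6 and 51.3. The gap between 3 and 2 layers was largest in alpha-amanitin endoderm among these 6 lists. The layers were not matched here: 2190 of the 3081 regions of 2 layers had no untreated endoderm peak. The authors' fold enrichment of a peak over background is a ratio and not a percentile, and was not compared directly with the ranks of −log10 q. Its median was 6.84 in 3-layer regions and 6.49 in regions of 2 layers in alpha-amanitin endoderm, 3.61 and 3.30 in set 1 mesoderm, and 6.24 and 6.26 in alpha-amanitin ectoderm. With the morpholinos the median fold was 5.79 in 3-layer regions, 5.81 in regions of 2 layers, 6.05 in regions of 1 layer and 6.36 outside all regions. Peaks in 3-layer regions were also wider, with medians of 377 bp against 293 bp for the other peaks of alpha-amanitin endoderm and 974 bp against 522 bp in set 1 mesoderm.

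**Figure D3:**
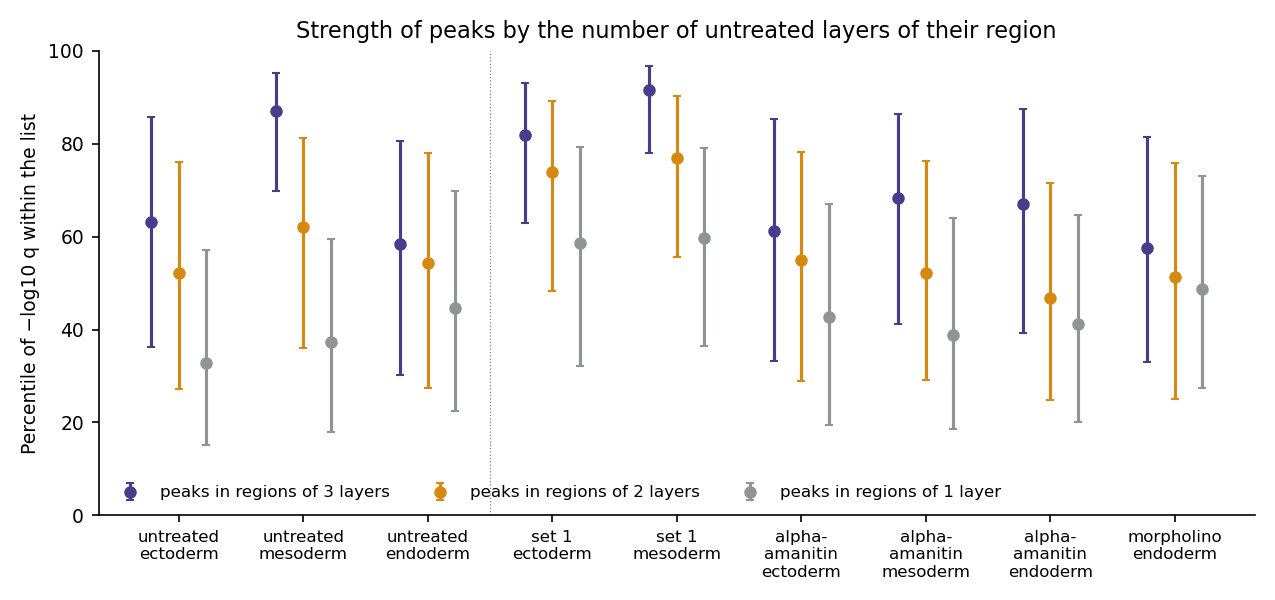
Percentile of −log10 q within each list (y axis, 0 weakest to 100 strongest) for peaks in regions of 3, 2 or 1 untreated layers, by list (x axis); points are medians, bars run from the lower to the upper quartile, and the dotted line divides the 3 lists the rule used from the 6 others. In each of the 6 other lists the medians fall in the order 3, 2 and 1 layers, from 91.5 to 59.8 in set 1 mesoderm and from 57.6 to 48.7 with the morpholinos.

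Among the 6 other lists, alpha-amanitin endoderm had the highest share of its strongest peaks in 3-layer regions. Of its strongest 500 peaks, 266 lay in one (53.2%, 48.7 to 57.6), compared with 207 for mesoderm after alpha-amanitin (41.4%), 164 for ectoderm (32.8%) and 127 with the morpholinos (25.4%). In untreated endoderm, a list the rule used, 164 of the strongest 500 did (32.8%, 28.7 to 37.1). In set 1 the numbers were 109 in ectoderm (21.8%) and 188 in mesoderm (37.6%). The lists differ in length, from 1192 to 15925 peaks, so 500 peaks are a different part of each. Over whole lists, 3-layer regions held 733 of 2372 alpha-amanitin endoderm peaks (30.9%, 29.0 to 32.8), 810 of 3648 in mesoderm (22.2%, 20.9 to 23.6) and 627 of 3206 in ectoderm (19.6%, 18.2 to 21.0). They held 255 of 1192 morpholino peaks (21.4%), 748 of 13130 set 1 ectoderm peaks (5.70%) and 767 of 15925 set 1 mesoderm peaks (4.82%).

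Summits are the single position of highest enrichment that the authors gave for each peak. Peaks of the 3 layers were joined by overlap and had median widths of 364 to 679 bp in these regions. The choice thus limits how far apart their summits can lie, and the distances are given as descriptions. Set 1 and treated summits were likewise compared only where a peak overlapped the same region. The distance between the strongest summits of ectoderm and mesoderm had a median of 70.0 bp (quartiles 28.0 and 177), that of ectoderm and endoderm 99.0 bp (36.0 and 265) and that of mesoderm and endoderm 88.0 bp (32.8 and 238). Summits of the same layer in different libraries lay about as far apart. Among the 667 regions in both set 1 lists, ectoderm summits of the 2 experiments were a median of 97.0 bp apart and mesoderm summits 71.0 bp, and ectoderm and mesoderm of set 2 lay 72.0 bp apart. Between untreated and treated samples of a layer, the median was 82.5 bp for alpha-amanitin ectoderm, 71.0 bp for mesoderm and 80.0 bp for endoderm, and 89.0 bp for morpholino endoderm.

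**Figure D4:**
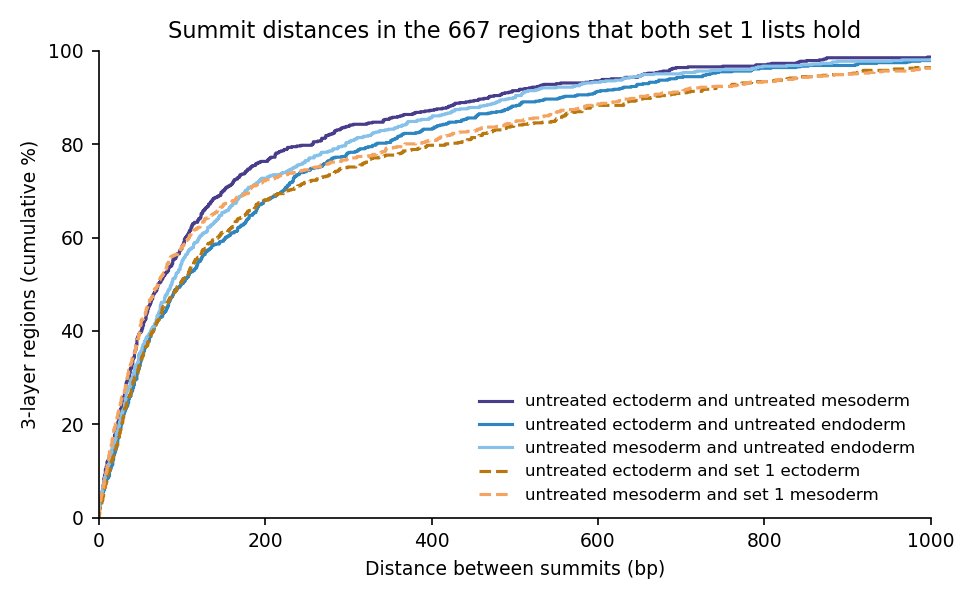
Distance between the strongest summits of 2 lists in the same region (x axis, bp) as the cumulative percent (y axis) of the 667 3-layer regions found in both set 1 lists; solid lines compare untreated layers of set 2 and dashed lines the same layer in set 2 and set 1. The 5 curves run close together, with medians from 71.0 to 99.0 bp.

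The 3-layer regions lay near each other. On the 10 chromosomes, 361 of 740 had another 3-layer region within 5000 bp (48.8%, 45.1 to 52.5), against 16.9% of the regions of 2 layers (488 of 2889, 15.5 to 18.3) and 9.38% of those of 1 layer (674 of 7182, 8.72 to 10.1). The median distance to the nearest other 3-layer region was 6416 bp for 3-layer regions and 391378 bp for regions of 2 layers. Any merged region at all lay within 5000 bp of 92.0% of the 3-layer regions, 84.7% of the regions of 2 layers and 65.6% of those of 1 layer. A good part of this came from short gaps: of 215 pairs of adjacent 3-layer regions within 5000 bp, 145 (67.4%) were at most 500 bp apart, with a median gap of 302 bp. When peaks up to 500 bp apart were joined into 1 region, 147 of 653 had another such region within 5000 bp (22.5%, 19.4 to 25.9), against 9.63% and 7.09% of regions of 2 and 1 layers. How often regions of 2 or 1 layers lay near others of their own kind was not counted. Whether such nearness is particular to 3-layer regions was thus not tested.

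**Figure D5:**
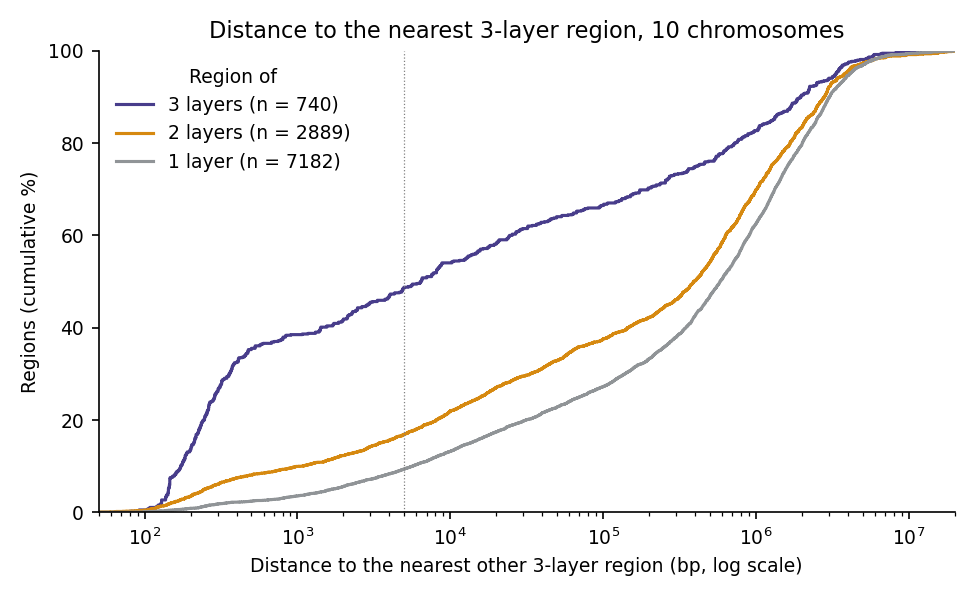
Distance to the nearest other 3-layer region (x axis, bp, log scale) as the cumulative percent of regions (y axis), for regions of 3, 2 and 1 layers on the 10 chromosomes; the dotted line marks 5000 bp. At that line the curve of the 3-layer regions stood at 48.8%, that of 2 layers at 16.9% and that of 1 layer at 9.38%.

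Chained at gaps of at most 5000 bp, the regions formed 585 loci. Of these, 429 were lone regions and 156 held at least 2, together 371 regions (46.4%). There were 117 loci of 2 regions, 31 of 3, 5 of 4 and 1 each of 5, 7 and 12. Regions in shared loci were found more often than lone ones after alpha-amanitin, by 12.4 points in ectoderm (5.97 to 18.7), 10.9 in mesoderm (5.68 to 16.1) and 15.1 in endoderm (9.32 to 20.8). With the morpholinos the difference was 2.25 points (-4.04 to 8.58). In untreated set 1 it was 6.31 points in ectoderm, with a lower limit of 1.55, and 1.09 points in mesoderm (-3.12 to 5.20). A difference in this direction was thus not limited to treated lists. Regions in shared loci were also stronger, with a median percentile of the weakest layer of 49.3 against 36.8, and wider, at 857 bp against 675 bp, and the part of these in the difference was not tested. Of the 215 adjacent pairs, both regions had an alpha-amanitin endoderm peak in 157, 1 of the pair in 49 and neither in 9. With the morpholinos these counts were 35, 59 and 121. Of all regions in shared loci, 84.4% had an alpha-amanitin endoderm peak and 30.5% a morpholino peak. Whether neighbours were alike beyond these shares was not tested.

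The largest loci were singled out after their sizes were known, and their small counts were not tested against the other regions. Of all 800 3-layer regions, 86.4% and 90.2% had peaks in set 1 ectoderm and mesoderm. The shares were 68.0%, 82.0% and 76.2% in alpha-amanitin ectoderm, mesoderm and endoderm, and 29.2% with the morpholinos. On chromosome 1, 12 of the 3-layer regions lay within 26856 bp (160311871 to 160338726). All 12 had peaks in both set 1 lists, 10 in alpha-amanitin ectoderm, 11 in mesoderm and 10 in endoderm, and 3 with the morpholinos. One of them (160327553 to 160330590) contained 8 untreated peaks, ranked at the 98.8 percentile of alpha-amanitin endoderm and had no morpholino peak. On chromosome 7 (18646130 to 18659295), 7 regions lay together, of which 6 had a peak in alpha-amanitin ectoderm, 7 in mesoderm and 5 in endoderm, and 0 of 7 with the morpholinos. In set 1, 6 of them had an ectoderm and 6 a mesoderm peak. On chromosome 3 (36902007 to 36909383), all 5 regions were in both set 1 lists and in every alpha-amanitin list, and 2 had a morpholino peak. Of the 5 loci of 4 regions, 1 on chromosome 7 (91366099 to 91375987) was picked for its pattern and not its size. All 4 of its regions had peaks in alpha-amanitin mesoderm and endoderm and with the morpholinos, but only 1 in alpha-amanitin ectoderm. In each of the other loci of this size all 4 regions had an alpha-amanitin ectoderm peak, and 0 to 2 had a morpholino peak.

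The widest region, on chromosome 8 (83805586 to 83809549), spanned 3964 bp with 8 untreated peaks and was in all 9 lists, with −log10 q from 10.5 with the morpholinos to 40.6 in set 1 mesoderm. The region with the most untreated peaks, 9, lay on chromosome 3 (36873248 to 36876093) and was also in all 9 lists. Its −log10 q was 32.6 in untreated endoderm, 12.3 in alpha-amanitin endoderm and 12.7 with the morpholinos. In both regions the peaks of treated endoderm ranked lower than that of untreated endoderm.

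The 3-layer regions made up 4.13% of the merged regions of chromosome 9 (21 of 509, 2.57 to 6.24), the lowest share of the 10 chromosomes, and 8.14% of those of chromosome 7 (88 of 1081, 6.58 to 9.93), the highest. These chromosomes were picked as the extremes of 10, and their intervals nearly meet. A further 60 of the regions lay on scaffolds outside the chromosomes. Of these, 33 of 60 had a morpholino peak (55.0%, 41.6 to 67.9), against 201 of 740 on chromosomes (27.2%, 24.0 to 30.5). The share over all merged regions was likewise higher on scaffolds, at 14.0% against 6.03% on chromosomes, so the excess was not particular to 3-layer regions. The scaffold regions were stronger, with a median percentile of the weakest layer of 68.9 against 41.1. They were found in alpha-amanitin endoderm in 70.0% of cases against 76.8%, but this difference rests on 60 scaffold regions and was not tested. For that list, the share of all merged regions was not divided into scaffolds and chromosomes.

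At the edge of the rule, the smallest overlap that linked the layers was 16 bp, in a region on chromosome 6 (45954188 to 45954975) with −log10 q of 8.89, 13.2 and 14.6 in ectoderm, mesoderm and endoderm. In 5 of the 800 regions this overlap was at most 50 bp. Just outside, 2 of the 2889 regions of 2 layers on chromosomes had a peak of the missing layer within 50 bp, and 56 within 200 bp. The nearest of these, on chromosome 6 (83038671 to 83039085), had mesoderm and endoderm peaks and lay 13 bp from an ectoderm peak with −log10 q of 8.42. That peak was itself part of a 3-layer region, in a locus of 3 such regions (83037895 to 83043934). How many of the other nearby peaks already belonged to 3-layer regions was not counted.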

How the data were processed

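The 9 deposited H3K4me1 peak lists were used as the authors made them. Per the submitters' processing notes, Bowtie2 2.2.7 was run. The sources used here do not give the genome build, the peak caller with its settings, or any input library. Each peak of the deposited 10-column lists has a −log10 q, a score and an enrichment, which is a ratio (fold) over background. All are the authors' own, and −log10 q, then fold where tied, was used to rank peaks within a list. No depth is recorded. The 2 replicates of each set 1 group were pooled by the authors.

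Regions were built by merging the 3 untreated set 2 lists at an overlap of at least 1 bp, and counted as found in a list at an overlap of at least 1 bp with any of its peaks. Starts were converted to 1-based positions. Percentiles are mid-ranks within a list. Differences over 5 strength bins are unweighted means with normal 95% intervals. Regions outside the 10 chromosomes stayed in unless stated. The regions, the summaries and the rules for named regions were chosen with earlier results of these data known. Named regions lay on chromosomes. They were those strongest by their weakest layer or weakest other list, absent from the 6 other lists, widest or with the most peaks. Others were at the extremes of the treatment combinations or at the edge of the rule. Loci were picked by size, apart from 1 locus of 4 regions that was picked for its pattern. The 15 single-embryo RNA samples were not used.

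Alternatives were other overlaps, gaps of 500 bp, stronger peaks alone, lists of equal length, the chromosomes alone and regions with a base shared by all layers. A look-up in 200 bp around the strongest summit, and the neighbours under 3 of these settings, were added after seeing the data. On 4000 simulated regions the steps gave 0 wrong regions, 0 wrong look-ups and 0 wrong distances. Python 3.11.15 with numpy 2.4.6, pandas 2.3.3, scipy 1.17.1 and matplotlib 3.10.9 was used.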

Additional observations from a re-analysis of the deposited data

How the results depend on the processing

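Of 139 alternative values, 83 stayed within the set margin, 56 moved and 0 changed direction. For shares, differences and distances the margin was the interval of the reported value. Only the differences between shares could change direction. Shares, counts and distances cannot fall below 0, so for them the absence of a change was fixed beforehand and says nothing about stability. The lists keep no record of depth, 1 library stands behind each set 2 list and the pooled set 1 lists cannot be taken apart, so no replicate could be left out. No paired analysis was possible because the set 1 replicates are pooled in 1 list per layer and set 2 has 1 library per condition. The causes of the moves were not tested beyond what each alternative does by its construction. For the shares found in the other lists that are given below, the share of all merged regions was not counted under the same setting. Such a share alone thus does not show whether its move is particular to the chosen regions.

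With every other list shortened to its strongest 1192 peaks, shares of 3-layer regions found were 29.6% in set 1 ectoderm, 45.2% in set 1 mesoderm, 35.2% in alpha-amanitin ectoderm, 47.6% in mesoderm and 55.6% in endoderm, 19.9% in all 3 alpha-amanitin lists and 5.62% in all 9 lists. Differences from all regions of 2 layers were then 17.3 points in alpha-amanitin ectoderm, 30.0 in mesoderm, 41.7 in endoderm and 27.0 in set 1 mesoderm. With the full lists they were 27.6, 33.9, 47.7 and 8.26 points. With the upper 50% of each other list, shares were 73.9% and 86.2% in set 1 ectoderm and mesoderm, 43.8%, 60.8% and 55.6% in alpha-amanitin ectoderm, mesoderm and endoderm, 27.4% in all 3, 18.1% with the morpholinos and 8.12% in all 9.

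With the upper 50% of each untreated list, there were 336 regions, with shares of 89.9% in set 1 ectoderm, 80.7%, 91.7% and 87.2% in alpha-amanitin ectoderm, mesoderm and endoderm, 70.2% in all 3, 41.1% with the morpholinos and 28.0% in all 9. With untreated lists of equal length, shares were 72.0%, 86.2% and 80.1% in the 3 alpha-amanitin layers and 58.6% in all 3. Differences from all regions of 2 layers were then 24.6 points in alpha-amanitin mesoderm, 41.7 in endoderm and 3.80 in set 1 mesoderm. With the full untreated lists they were 33.9, 47.7 and 8.26 points. With peaks linked within 500 bp, shares were 89.3% and 93.7% in set 1 ectoderm and mesoderm, 58.5% in all 3 alpha-amanitin lists, 33.6% with the morpholinos and 22.4% in all 9, and 22.5% of regions had another within 5000 bp.

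With a look-up within 500 bp, shares were 91.4% and 94.1% in set 1, 74.1%, 86.1% and 82.5% in the 3 alpha-amanitin layers, 62.5% in all 3, 33.5% with the morpholinos and 22.8% in all 9. The difference from all regions of 2 layers in alpha-amanitin mesoderm was then 28.7 points, against 33.9 with the reported look-up. With a look-up in the 200 bp around the strongest summit, shares were 63.0%, 77.9% and 70.6% in the alpha-amanitin layers, 46.2% in all 3, 25.5% with the morpholinos and 13.6% in all 9. No difference from regions of 2 layers moved. This look-up gives every region the same length, but the peaks looked up were themselves wider in 3-layer regions. The part of width in the differences was thus not tested. With the nearest pair of summits in place of the strongest, ectoderm and endoderm lay 83.5 bp apart.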
